A study of Mus musculus with 6 samples.

Results

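The IL-6, IL-10 and STAT3 axis was examined as 10 genes, chosen by name and not by their measured values, of 49315 genes counted in liver F4/80-positive cells. F4/80 is a surface protein of mouse macrophages, and most liver cells that carry it are Kupffer cells, which reside in the sinusoids. All 10 genes had enough reads to be tested, among 16134 genes tested in all. The libraries came from 3 WT and 3 Lpcat3 KOMac samples, all untreated and all from mice fed a high-fat diet (60% fat) for 16 weeks from an age of 8 to 12 weeks. Lpcat3 encodes an acyltransferase that places arachidonic acid in membrane phospholipids. Mice of both groups carried floxed Lpcat3 alleles (Lpcat3 fl/fl, C57BL/6N background). Lpcat3 KOMac mice also carried LysM Cre/+, in which Cre is driven from the Lyz2 locus of myeloid cells, whereas their WT littermates were LysM +/+. The deletion is therefore limited to cells that have used this promoter, and Cre takes the place of 1 Lyz2 allele. The sample labels do not state that each library came from a separate mouse, so the p-values measure the spread between these samples.

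Lpcat3 itself was at 85, 66.2 and 61.2 CPM in WT libraries 1 to 3 and at 19.5, 33.3 and 19.4 CPM in Lpcat3 KOMac libraries 1 to 3, 34% of the WT mean. CPM are read counts scaled to a common library size, here by TMM, which also corrects for composition. Library totals lay between 44954224 and 71392812 counts. The 8 Kupffer cell markers examined were present in every library, and their summed level was 29695 to 41311 CPM in WT and 23391 to 32477 CPM in Lpcat3 KOMac. The summed level of 8 hepatocyte markers spanned an 11.4-fold range and was highest in WT library 1 (25649 CPM) and Lpcat3 KOMac library 2 (15602 CPM). In such bulk samples, fewer cells of a type and less RNA per cell cannot be told apart.

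IL-6 binds its receptor chain, encoded by Il6ra, and the pair then engages the signal chain gp130, encoded by Il6st, which oncostatin M (Osm) also uses. IL-10 binds the chain encoded by Il10ra, which pairs with the chain encoded by Il10rb. Both receptor systems activate Janus kinases and the transcription factor STAT3. SOCS3, a product of a STAT3 target gene, binds gp130 and curbs IL-6 signalling but not IL-10 signalling, and BCL3 is a nuclear protein that binds NF-κB subunits and dampens inflammatory genes downstream of IL-10. Kupffer cells can secrete both cytokines, and hepatocytes answer IL-6 with acute phase proteins.

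The promoters of a target and a ligand of the axis are shown where they hold the letters of a known motif, since Socs3 is induced by STAT3 and Il6 by NF-κB. RefSeq promoter windows (GRCm38.p6, mostly upstream of the start) were at hand for 6 of the 10 genes, namely Bcl3, Il6, Il6ra, Il6st, Socs3 and Stat3. The STAT motif TTCNNNGAA, which reads the same on both strands, occurred in 1 of these 6 windows (Socs3) and in 8.3% of all 32851 windows. The NF-κB motif, searched on both strands, occurred in 1 of the 6 (Il6) and in 1.63% of all windows. The match starts 154 bases before the RefSeq start of Socs3 (chr11:117969492-117969540, minus strand) and 44 bases before that of Il6 (chr5:30013050-30013099, plus strand). The RefSeq start of Socs3, at 117969366, lies 681 bases downstream of the GENCODE start of the gene as counted here, so the printed stretch is inside the GENCODE gene. For Il6 both annotations have the same start. A match of letters is a description, not a site of binding. In the sequences below, written 5′ to 3′ on the strand of the gene, capitals mark the motif.
Socs3: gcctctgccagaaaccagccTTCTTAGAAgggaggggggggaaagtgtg
Il6: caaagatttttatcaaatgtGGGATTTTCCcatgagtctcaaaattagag

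The axis was rich in receptor transcripts and poor in ligand transcripts. Per length (CPM per kilobase of exon, RPKM, mean of 6 libraries), the IL-10 receptor chains led, with Il10ra at 74.1 and Il10rb at 63.9 RPKM. Il6ra followed at 25.6 RPKM, then Stat3 at 17.3, Bcl3 at 16.4 and Il6st at 15 RPKM. Socs3 was at 4.88 and Il10 at 4.65 RPKM, and Il6 and Osm came last at 0.896 and 0.345 RPKM. Neighbours in this order had ranges that did not overlap at 4 steps: Il10rb above Il6ra, Il6ra above Stat3, Il6st above Socs3 and Il10 above Il6. The other neighbours overlapped, and Bcl3 was above Il6st in 3 of 6 libraries. Among the genes tested, 95.8% had a lower RPKM than Il10ra, and 15.9% a lower one than Osm. The ratio of Il10ra to Il10 per length lay between 12 and 24.9, and that of Il6ra to Il6 between 16.8 and 84.3.

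**Figure D1:**
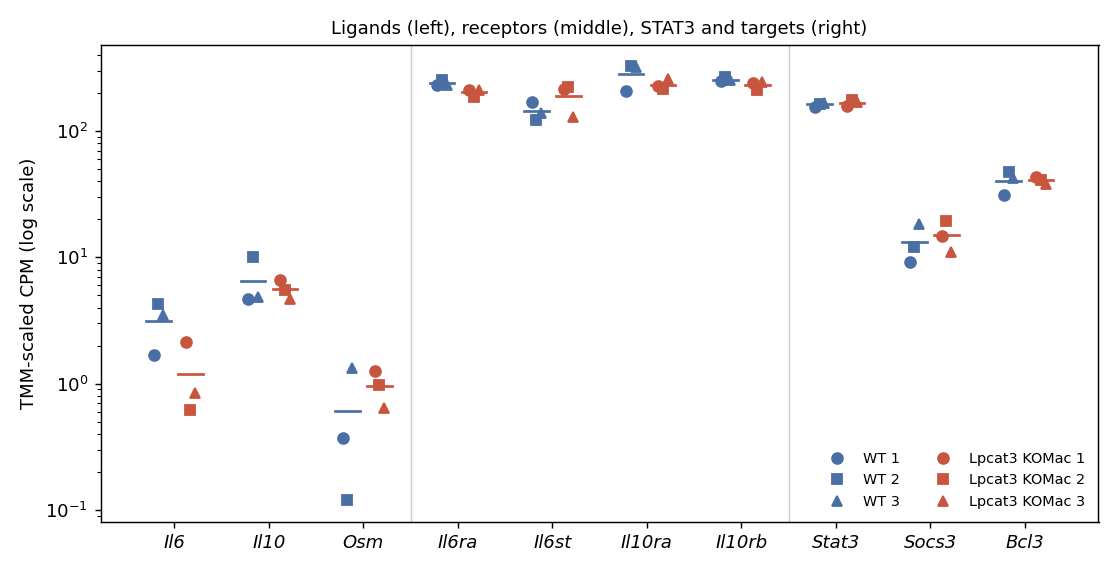
TMM-scaled CPM (log axis) of the 10 genes in each library, with ligands, receptors, and STAT3 with its targets from left to right. Blue symbols are the 3 WT and red symbols the 3 Lpcat3 KOMac libraries, symbol shape gives the library number and bars are genotype means. All values of the 4 receptor genes lie at or above 121 CPM, while those of the 3 ligands reach at most 10.1 CPM.

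Between genotypes, 0 of the 10 genes passed an adjusted p-value of 0.05 (edgeR quasi-likelihood, Benjamini-Hochberg over all genes tested), where 0 of 16134 genes did (0.0%). Lpcat3, the deleted gene, did not pass either (unadjusted p = 0.0012 and adjusted p = 0.9999 in edgeR), so 0 called does not show that no gene differed. An unadjusted p-value under 0.05 was reached by 1 of the 10 (Il6ra), where 426 genes did (2.64%), 1.57% with the lower level in Lpcat3 KOMac. DESeq2 and limma-voom also called 0 of the 10, where DESeq2 called 11 genes (0.0733%) and limma-voom 0. In 2 of the 10 genes, Il6ra and Il10rb, every Lpcat3 KOMac library lay below every WT library, where 5.2% of all genes tested were separated in this direction and 7.49% in either. The log2 fold changes (Lpcat3 KOMac against WT) were below 0 for 5 and above 0 for 5, where 59.9% of all genes tested were below 0, with a median of -0.07 beside -0.04 over all genes tested. For 6 of the 10 (Il6ra, Il10ra, Il10rb, Stat3, Socs3 and Bcl3) the 95% interval lay within a 2-fold change both ways, as it did for 63.4% of all genes tested.

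**Figure D2:**
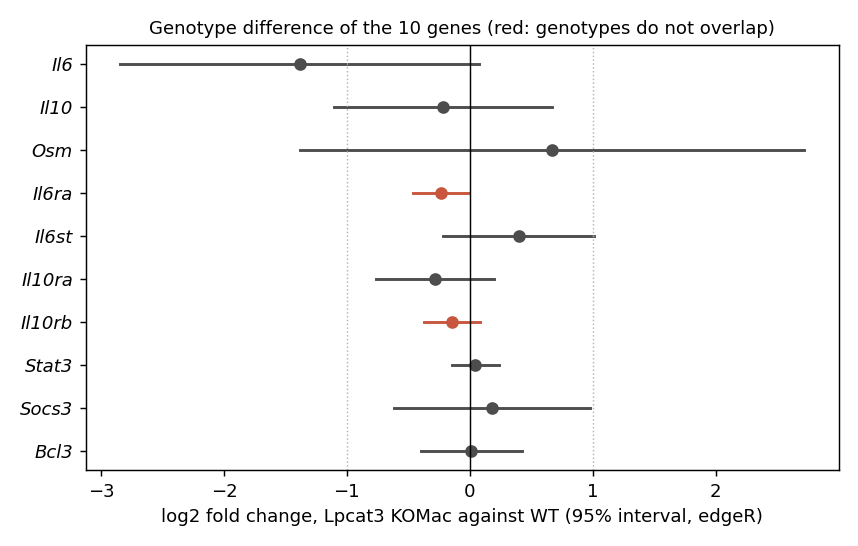
Log2 fold change of each gene, Lpcat3 KOMac against WT, with its 95% interval from edgeR. Dotted lines mark a 2-fold change and red the genes whose genotypes do not overlap (Il6ra and Il10rb). The intervals of Il6 (-2.85 to 0.08) and Osm (-1.38 to 2.72) are the widest of the 10.

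Among the ligands, Il6 (ENSMUSG00000025746, chromosome 5, 30013114 to 30019981 of GRCm38, plus strand) had the lower mean in Lpcat3 KOMac cells, but its genotypes overlapped. It was at 1.69, 4.25 and 3.5 CPM in WT libraries 1 to 3, from 110, 213 and 160 counts, and at 2.14, 0.617 and 0.85 CPM in Lpcat3 KOMac libraries 1 to 3, from 124, 32 and 40 counts. The overlap rests on these first libraries of each genotype, since Lpcat3 KOMac library 1 was above WT library 1. The log2 fold change was -1.38 (standard error 0.59, 95% interval -2.85 to 0.08, unadjusted p = 0.0597 and adjusted p = 0.9999 in edgeR), and the exact permutation test gave a two-sided p = 0.2. It stayed below 0 with each library left out in turn, between -2.06 and -1.05, and was -2.06 without Lpcat3 KOMac library 1 (unadjusted p = 0.0115) and -1.68 without WT library 1 (unadjusted p = 0.0266) in edgeR. In either case the genotypes no longer overlapped, as for 11.3% and 32.7% of all genes tested. With each of the other libraries left out, the unadjusted p-value for Il6 was between 0.124 and 0.159 in edgeR.

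Il10 (ENSMUSG00000016529, chromosome 1, 131019845 to 131024974, plus strand) had levels of 4.65, 10.1 and 4.83 CPM in WT libraries 1 to 3 and 6.65, 5.55 and 4.7 CPM in Lpcat3 KOMac libraries 1 to 3. WT library 2 stood above the other 5, which lay close together. On the log2 scale the fold change was -0.22 (standard error 0.36, 95% interval -1.10 to 0.67), and it was 0.25 without WT library 2. The 11 immediate early and heat shock genes examined, which tissue digestion can induce, also had their highest sum in WT library 2, at 1093 CPM against 598 to 941 CPM in the others. Among them, Fosb and Atf3 were highest in Lpcat3 KOMac library 1, and Hspa1a and Hspa1b in WT library 1. The B cell markers summed to 278 CPM there against 31.4 to 145 CPM in the others. The part of these in the Il10 value was not tested.

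The ratio of Il10 to Il6 per length was 5.09, 4.42 and 2.56 in WT libraries 1 to 3 and 5.77, 16.7 and 10.2 in Lpcat3 KOMac libraries 1 to 3. It was higher in every Lpcat3 KOMac library than in every WT library, with means of 4.02 ± 1.31 (SD, n = 3) and 10.9 ± 5.49 (SD, n = 3). The two-sided exact permutation test gave p = 0.1, the smallest that 3 against 3 allow, and 0.333 after Benjamini-Hochberg adjustment over the 5 ratios between genes of the axis that were computed. Of these 5 ratios, the other 4 overlapped between genotypes.

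Osm (ENSMUSG00000058755, chromosome 11, 4236420 to 4241026, plus strand) was the lowest of the 10. It was at 0.369, 0.12 and 1.33 CPM in WT libraries 1 to 3, from 24, 6 and 61 counts, and at 1.26, 0.984 and 0.637 CPM in Lpcat3 KOMac libraries 1 to 3, from 73, 51 and 30 counts. WT libraries held both the lowest and the highest value, and the log2 fold change was 0.67 (standard error 0.83, 95% interval -1.38 to 2.72). It lay between 0.18 and 1.94 with each library left out, lowest without WT library 2 and highest without WT library 3. Ccr2, a chemokine receptor of recruited monocytes, ranked the 6 libraries in the same order as Osm, from 17.5 CPM in WT library 2 to 92.5 CPM in WT library 3, an order shared by 0.167% of the genes tested. Ccr2 was singled out of 5 monocyte markers after its values were seen, and the others ranked the libraries differently. Itgam was highest in WT library 2, at 45.3 CPM, where Osm was lowest. The 5 markers together summed to 74.1 to 209 CPM in WT and 128 to 156 CPM in Lpcat3 KOMac. The 6 neutrophil markers summed to 2.08 to 3.13 CPM in WT and 4.36 to 5.84 CPM in Lpcat3 KOMac, with Ly6g at 0 to 0.064 CPM. The part of other myeloid cells in the Osm level was not tested.

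**Figure D3:**
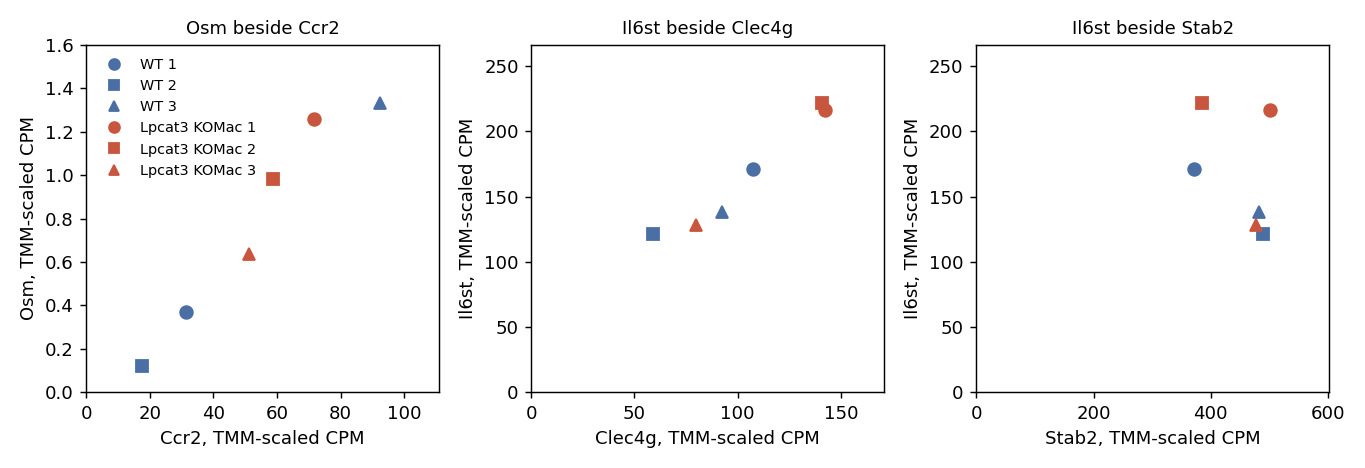
Each point is 1 library (blue WT, red Lpcat3 KOMac, symbol shape the library number), with TMM-scaled CPM on both axes. Osm and the monocyte gene Ccr2 rank the libraries alike (left), which the other 4 monocyte markers examined do not. Il6st is highest in the libraries with the most Clec4g (middle), an endothelial gene. Lpcat3 KOMac library 2, the highest in Il6st, is below 4 of the other libraries in Stab2 (right), another endothelial gene.

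Among the receptors, Il6ra (ENSMUSG00000027947, chromosome 3, 89864059 to 89913196, minus strand) had levels of 231, 254 and 232 CPM in WT libraries 1 to 3 and 212, 185 and 212 CPM in Lpcat3 KOMac libraries 1 to 3. The groups did not overlap, with means of 239 ± 12.9 and 203 ± 15.6 CPM (SD, n = 3 each), the latter 85.1% of the former. The log2 fold change was -0.23 (standard error 0.09, 95% interval -0.46 to -0.01, unadjusted p = 0.0465 and adjusted p = 0.9999 in edgeR), and the exact permutation test gave a two-sided p = 0.1, the smallest possible. With each library left out, the fold change was -0.26 to -0.15 and the unadjusted p-value 0.0515 to 0.148 in edgeR. On all libraries the unadjusted p-value was 0.0541 in DESeq2, 0.0467 in limma-voom and 0.265 in edgeR with total counts alone. Il6ra shares 242 exonic bases with an antisense gene whose highest count in a library was 16.

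Il10rb (ENSMUSG00000022969, chromosome 16, 91406164 to 91425834, plus strand) had levels of 247, 267 and 253 CPM in WT libraries 1 to 3 and 239, 210 and 245 CPM in Lpcat3 KOMac libraries 1 to 3. The groups were separated by a narrow gap, between 245 and 247 CPM. The fitted log2 difference was -0.14 (standard error 0.09, 95% interval -0.37 to 0.08). Gm21970, a gene on the same strand annotated with readthrough transcripts, shares 569 exonic bases with Il10rb and had at most 3 counts in any library. How reads of shared bases were assigned is not given in the sources used here.

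The separation of both genes depended on the scaling. The 8 Kupffer cell markers all had log2 fold changes below 0, with a median of -0.23, and Adgre1, which encodes F4/80, was at -0.18 (standard error 0.16). As a percentage of Adgre1 in the same library, a setting chosen after seeing the data, Il6ra was at 10.8%, 8.31% and 9.74% in WT and 9.15%, 9.33% and 8.86% in Lpcat3 KOMac libraries 1 to 3. The genotypes then overlapped, and 0 of the 10 genes were separated, where 5.81% of all genes tested were. This scaling moved the median of all genes tested by 0.20 on the log2 scale, and relative to that median Il6ra was at -0.23 and Il10rb at -0.14, beside -0.19 and -0.11 with TMM. With total counts alone, Il6ra was at -0.14 and Il10rb at -0.05, and again 0 of the 10 were separated. With the size factors of DESeq2 in edgeR, they were at -0.22 and -0.13 and both stayed separated, as were 6.91% of all genes tested.

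**Figure D4:**
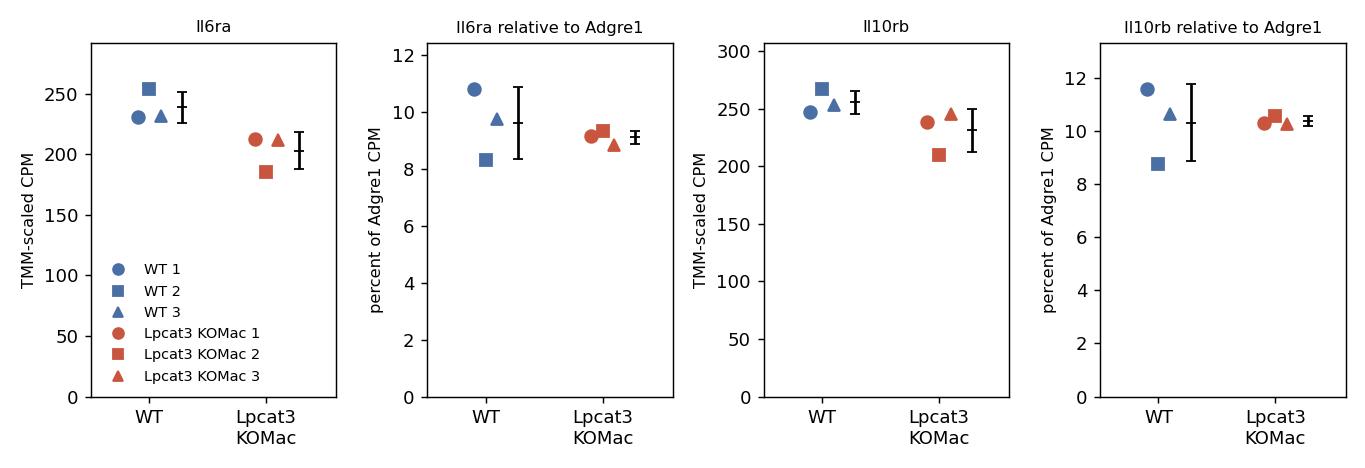
Il6ra and Il10rb in each library as TMM-scaled CPM and as a percentage of Adgre1 CPM in the same library. Symbols are libraries (blue WT, red Lpcat3 KOMac), and black bars are the mean ± SD of 3 libraries. The genotypes are separated on the CPM scale and overlap on the Adgre1 scale, where WT library 2 is lowest.

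Il10ra (ENSMUSG00000032089, chromosome 9, 45253837 to 45269149, minus strand), the ligand-binding chain for IL-10, was at 207, 325 and 321 CPM in WT libraries 1 to 3 and at 228, 216 and 257 CPM in Lpcat3 KOMac libraries 1 to 3. WT library 1, which was richest in hepatocyte markers, was the lowest of the 6, and the other WT libraries were the highest. The log2 fold change was -0.29 (standard error 0.19, 95% interval -0.77 to 0.20). It was -0.47 without WT library 1 (unadjusted p = 0.00494 and adjusted p = 0.294 in edgeR), when 32.7% of all genes tested did not overlap between genotypes. Leaving out any other library gave -0.33 to -0.18, with unadjusted p-values of 0.199 to 0.445 in edgeR.

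Il6st (ENSMUSG00000021756, chromosome 13, 112464070 to 112510086, plus strand), the shared signal chain, had the highest mean in Lpcat3 KOMac cells relative to WT among the receptors. It was at 171, 121 and 138 CPM in WT libraries 1 to 3 and at 217, 222 and 128 CPM in Lpcat3 KOMac libraries 1 to 3. Lpcat3 KOMac libraries 1 and 2 were above all WT libraries, and Lpcat3 KOMac library 3 was within their range. Its log2 fold change between genotypes was 0.40 (standard error 0.25, 95% interval -0.21 to 1.01), and it stayed between 0.28 and 0.64 with each library left out. Without Lpcat3 KOMac library 3 it was 0.64 (unadjusted p = 0.0177 and adjusted p = 0.9999 in edgeR) and the genotypes did not overlap, as for 15.3% of all genes tested. Unadjusted p-values were 0.0877 to 0.369 in edgeR with any other library left out.

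Genes of liver endothelial cells, which also express Il6st, varied with it in part. Lpcat3 KOMac libraries 1 and 2 had the highest levels of Clec4g (142 and 141 CPM, against 58.9 to 108 CPM in the other 4) and Lyve1 (65.1 and 64.2 CPM, against 14.8 to 42.4 CPM). They were also highest in Kdr and Fcgr2b, while Stab2 and Pecam1, the other endothelial markers of 6 examined, did not follow. The summed level of the 6 was 879 to 1009 CPM in WT and 977 to 1227 CPM in Lpcat3 KOMac. Osmr, the receptor chain that pairs with gp130 for oncostatin M, was likewise highest in these libraries, at 9.9 and 7.37 CPM against 2.54 to 4.31 CPM. These genes were singled out after their values were seen. Lpcat3 KOMac libraries 1 and 2 and WT library 1, the highest in Il6st, were also the highest in summed hepatocyte markers. That sum was 5940, 15602 and 25649 CPM in them, against 2248 to 5545 CPM in the others. With hepatocyte markers as a covariate in edgeR, the log2 fold change of Il6st was 0.31 (standard error 0.20). The part of the endothelial genes, Osmr or hepatocytes in the Il6st level was not tested.

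Stat3 (ENSMUSG00000004040, chromosome 11, 100885098 to 100939540, minus strand) was the steadiest of the 10. It was at 156, 165 and 166 CPM in WT libraries 1 to 3 and at 158, 175 and 170 CPM in Lpcat3 KOMac libraries 1 to 3, a 1.12-fold range over all libraries. Only 4.07% of the genes tested had a smaller SD of log2 CPM within genotypes. The log2 fold change was 0.05 (standard error 0.08), with a 95% interval of -0.14 to 0.24, or 0.906-fold to 1.18-fold. The end of Stat3 shares 72 exonic bases with Stat5a on the other strand, which had at most 979 counts in a library where Stat3 had 7590 or more.

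Socs3 (ENSMUSG00000053113, chromosome 11, 117966079 to 117970047, minus strand), the target whose match in the RefSeq window is printed above, was at 9.19, 12.2 and 18.3 CPM in WT libraries 1 to 3. In Lpcat3 KOMac libraries 1 to 3 it was at 14.7, 19.4 and 10.9 CPM. Both genotypes covered nearly the same span, and the log2 fold change was 0.18 (standard error 0.32, 95% interval -0.61 to 0.98). Without both libraries richest in hepatocyte markers it was -0.25. Socs3 did not rank the libraries as Il6, Il10 or Osm did: WT library 2, the highest in Il6 and Il10, was below 3 of the other libraries in Socs3.

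Bcl3 (ENSMUSG00000053175, chromosome 7, 19808462 to 19822770, minus strand) had levels of 31.2, 47.5 and 42.3 CPM in WT libraries 1 to 3 and 43.2, 41 and 38 CPM in Lpcat3 KOMac libraries 1 to 3. The Lpcat3 KOMac values all lay inside the WT range. In edgeR the log2 fold change was 0.01 (standard error 0.17, 95% interval -0.40 to 0.43). Its antisense neighbour Gm16175 shares 161 exonic bases with it and had at most 11 counts.

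Other genes of the pathway were examined in 7 lists with 83 genes, 72 of which were tested. In edgeR, 0 of the 72 passed 0.05 after adjustment and 2 before it. In 3 the Lpcat3 KOMac libraries were all lower than the WT libraries and in 3 all higher, beside 5.2% and 2.29% of all genes tested. Their median log2 fold change was -0.04, the same as that of all genes tested.

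**Figure D5:**
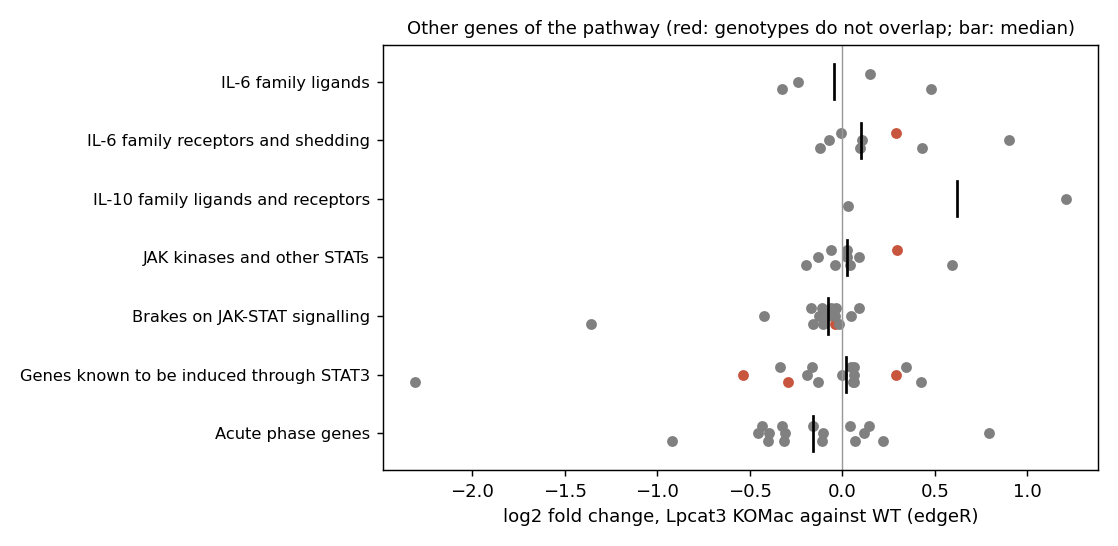
Log2 fold change, Lpcat3 KOMac against WT, of the tested genes of 7 pathway lists. Each point is a gene, black bars are list medians and red marks genes whose genotypes do not overlap. The medians of the lists lie between -0.16 and 0.62, the latter from 2 genes.

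Of the remaining IL-6 family ligands, 4 of 8 were tested, and 0 were separated between genotypes. Ebi3, a subunit of IL-27 and IL-35, was the highest at 43 ± 9.17 CPM in WT and 34.2 ± 6.05 CPM in Lpcat3 KOMac (SD, n = 3 each). Clcf1 was at 7.83 ± 5.18 and 10.9 ± 1.4 CPM, and Il27 at 5.73 ± 2.51 and 4.84 ± 0.763 CPM (SD, n = 3 each). Il11 and Lif were near the floor of detection, taken as 3 counts, and their highest counts in a library were 4 and 6.

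Of the receptors and shedding enzymes of the IL-6 family, all 8 were tested and 1, the IL-27 receptor chain Il27ra, was separated. Its level was 5.17 ± 0.391 CPM in WT and 6.32 ± 0.772 CPM in Lpcat3 KOMac (SD, n = 3 each), and the difference on the log2 scale was 0.29 (standard error 0.17). The proteases Adam10 and Adam17, which can release the IL-6 receptor from the cell surface, were at 487 ± 36.3 and 369 ± 65.2 CPM in WT. In Lpcat3 KOMac they were at 486 ± 42.8 and 339 ± 65.3 CPM (SD, n = 3 each). Rhbdf2, a partner of ADAM17, was at 89.2 ± 17.2 and 95.8 ± 12.8 CPM (SD, n = 3 each). Of 9 further genes of the IL-10 family, 2 were tested, Il20rb at 1.91 ± 0.559 and 1.96 ± 0.489 CPM and Il22ra1 at 0.211 ± 0.258 and 0.507 ± 0.319 CPM (SD, n = 3 each). Ifnlr1, which was not tested, was at 0.231 ± 0.13 and 0.356 ± 0.428 CPM (SD, n = 3 each). Il20 and Il22 had 0 counts in every library, which allows up to 3 counts per library.

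Among the kinases and other STATs, Jak3 was separated, at 41.4 ± 5.46 CPM in WT and 50.9 ± 3.58 CPM in Lpcat3 KOMac (SD, n = 3 each), higher by 0.30 on the log2 scale (standard error 0.12, adjusted p = 0.9999 in edgeR). Jak1, the kinase bound to gp130, was at 351 ± 40.7 and 373 ± 19.2 CPM, and Stat6 at 286 ± 34 and 278 ± 26.5 CPM (SD, n = 3 each). Of 15 brakes on the pathway, 13 had log2 fold changes below 0 with TMM, where 59.9% of all genes tested did, and the median was -0.08. This direction turned with the scaling, as 7 of 15 were below 0 with total counts alone (35.1% of all genes) and 2 of 15 relative to Adgre1 (15.0%). Socs6 was separated by a small margin, at 30.8 ± 0.521 and 29.9 ± 0.144 CPM (SD, n = 3 each), and its direction turned with total counts alone (0.05) and relative to Adgre1 (0.12). The phosphatases Ptpn6 and Ptpn1 were at 572 ± 106 and 403 ± 54.5 CPM in WT and at 509 ± 28.1 and 428 ± 27.1 CPM in Lpcat3 KOMac (SD, n = 3 each). Ptpn11 was at 125 ± 6.29 and 122 ± 5.02 CPM (SD, n = 3 each).

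Of 16 genes known to be induced through STAT3, 3 were separated, where 7.49% of all genes tested were in either direction. Log2 fold changes were below 0 for 8 and above 0 for 8, where 59.9% of all genes tested were below 0. Cebpd, a transcription factor of the acute phase response, was at 28.6, 38.9 and 34.8 CPM in WT libraries 1 to 3 and at 27.1, 20.6 and 22.7 CPM in Lpcat3 KOMac libraries 1 to 3. Its log2 fold change was -0.54 (standard error 0.16, unadjusted p = 0.0159 and adjusted p = 0.9999 in edgeR), between -0.65 and -0.44 with each library left out and -0.37 relative to Adgre1, and its genotypes overlapped with total counts alone. Cebpd ranked the 6 libraries in the same order as Il6ra, an order shared by 0.198% of the genes tested. This match was singled out after the values were seen, and a link between these genes was not tested. Other listed genes matched other members of the axis in the same way. Mcl1, which protects cells from apoptosis, had levels of 690, 734 and 762 CPM in WT and 643, 524 and 616 CPM in Lpcat3 KOMac libraries 1 to 3, with a fitted change of -0.29 in log2 units (standard error 0.11, unadjusted p = 0.0346 and adjusted p = 0.9999 in edgeR). With total counts alone or relative to Adgre1 the Mcl1 genotypes overlapped.

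Bcl6, a transcriptional repressor, was separated in the opposite direction, at 22.4, 29 and 29.6 CPM in WT and 31.9, 31.1 and 36.2 CPM in Lpcat3 KOMac libraries 1 to 3. Its log2 fold change was 0.29 (standard error 0.14, unadjusted p = 0.0806 and adjusted p = 0.9999 in edgeR), and it was separated under each of the 4 scalings tried, as were Jak3 and Il27ra. The median over all genes tested was -0.04 with TMM, 0.06 with total counts alone and 0.16 relative to Adgre1. These scalings thus moved most genes towards higher values in Lpcat3 KOMac and are not independent checks of genes that were higher there. Hmox1, the most abundant gene of this list, had a mean of 1345 ± 146 CPM in WT and 1405 ± 333 CPM in Lpcat3 KOMac (SD, n = 3 each). Zfp36, which destabilises cytokine mRNAs, was at 287 ± 68.8 and 256 ± 37.5 CPM (SD, n = 3 each).

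The 17 acute phase genes, most of them products of hepatocytes that STAT3 helps to drive, were all detected, and 0 were separated between genotypes. Their sum was 6929, 666 and 544 CPM in WT libraries 1 to 3 and 1795, 3713 and 1443 CPM in Lpcat3 KOMac libraries 1 to 3. This 12.7-fold range followed the hepatocyte markers, whose sum was 25649, 2545 and 2248 CPM in WT libraries 1 to 3 and 5940.2, 15602 and 5545 CPM in Lpcat3 KOMac libraries 1 to 3. Saa3, which macrophages also make, did not follow, at 2.79 CPM in WT library 1 but 17.1 CPM in WT library 3 and 23.0 CPM in Lpcat3 KOMac library 1. The most abundant of the list were Fga, at 453 ± 620 CPM in WT and 344 ± 155 CPM in Lpcat3 KOMac, Hp, at 414 ± 558 and 433 ± 256 CPM, and Hpx, at 373 ± 494 and 404 ± 255 CPM (SD, n = 3 each). The genes of the axis itself all spanned narrower ranges than this sum, the widest being Osm at 11.1-fold and Il6 at 6.89-fold.

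The genes most like each of 4 members were sought by the root mean square difference in log2 CPM over the 6 libraries, after each gene was centred on its own mean. For Il6 these were Gm13573 (0.379), Gm45083 (0.403) and Mmp9 (0.414), beside a spread of Il6 itself of 0.98. For Il10 they were 9930111J21Rik1 (0.106), Fgd1 (0.118) and Gm16244 (0.119), beside 0.397. For Osm they were Myo5a (0.111), Slc7a11 (0.153) and Lat2 (0.157), beside 1.1, and for Socs3 Ncapd2 (0.0779), Kif15 (0.0805) and Fanca (0.0964), beside 0.386. The nearest genes of Il6 were thus farther from it than those of the other 3 members, in log2 units.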

How the data were processed

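The authors isolated F4/80-positive liver cells with magnetic beads and sequenced poly(A) RNA libraries. The submitters' processing notes name Trimmomatic 0.36, STAR 2.5.2b, Subread 1.5.2 with featureCounts, and GRCm38. The deposited values are raw read counts per gene, 1 table per library, and the strand setting and treatment of reads in shared exons are not given in the sources used here. Gene symbols came from GENCODE M21, which gave a symbol for 48970 of 49315 identifiers.

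Counts were filtered with filterByExpr (minimum count 10), scaled by TMM and tested with edgeR 4.0.16 (robust quasi-likelihood, R 4.3.3) with Benjamini-Hochberg adjustment over 16134 genes. DESeq2 1.42.0, limma-voom 3.58.1, other scalings, no filter, a hepatocyte covariate, a replicate block and leaving out libraries were alternatives. Single ratios were compared by the exact permutation test. The tests were run on simulated data first. The measured values of the 10 genes were not used to choose them, but the 10 genes, the lists and the tests were chosen with earlier results of these data known. Outside the 10 genes, the rule named the genes of the 7 pathway lists whose genotypes did not overlap, the 3 most abundant of each pathway list and the nearest genes by level. Of these, 1 gene is not reported here. Marker genes of other cell types were not under this rule.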

Additional observations from a re-analysis of the deposited data

How the results depend on the processing

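With 3 libraries a group, the common coefficient of biological variation was 0.39, and the values of Il6 and Osm rest on few counts. Of the 10 genes, 0 had an adjusted p-value under 0.05 in each alternative run. DESeq2 called 11 genes in all and edgeR 0. The count of genes of the axis that did not overlap was 2 with TMM, 2 with the size factors of DESeq2 in edgeR, 0 with total counts alone and 0 relative to Adgre1 (chosen after seeing the data). It was 4 without both libraries richest in hepatocyte markers, and 2 to 4 with each library left out (4 without WT library 1 or Lpcat3 KOMac library 1). For the other pathway genes it was 6 with TMM, 41 without both hepatocyte-rich libraries and 7 to 37 with each library left out, the highest without WT library 1 (37), then WT library 3 (12). Of all genes tested, 7.49% did not overlap with TMM, 41.8% without both hepatocyte-rich libraries and 32.7% without WT library 1. The share was 12.6% without WT library 2 and 16.4% without WT library 3. Without Lpcat3 KOMac libraries 1 to 3 in turn it was 11.3%, 14.7% and 15.3%. All these shares were above that with TMM on all libraries, but the counts did not follow them closely. The count of the 10 was 4 beside 11.3%, and 2 beside 12.6% and 14.7%. For the other pathway genes it was 9 beside 12.6% and 7 beside 14.7%. The median log2 fold change of the 10 genes was -0.15 to 0.092 with each library left out, the highest without WT library 2. The direction turned for Il10 relative to Adgre1 (0.033), for Il10rb relative to Adgre1 (0.017), and, without both hepatocyte-rich libraries, for Stat3 (-0.011), Socs3 (-0.25) and Bcl3 (-0.14). With each library left out it also turned for Il10 (-0.41 to 0.25, above 0 without WT library 2), Socs3 (-0.023 to 0.49, below 0 without WT library 1 or Lpcat3 KOMac library 2) and Bcl3 (-0.14 to 0.15, below 0 without WT library 1). The cause of these changes was not tested.

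The same-numbered libraries share only a number: their deviations correlated between -0.60 and 0.36 over 3 pairs (mean -0.18). With the replicate number as a block, edgeR called 0 genes, 138 had an unadjusted p-value under 0.05 in place of 426, and Il6 was at -1.52.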
